A study of Homo sapiens with 4 samples.

Results

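The genes that copy DNA and supply its building blocks were followed in ES2 cells, an established human ovarian cancer (OCa) cell line that the study describes as cisplatin resistant, after treatment with liquiritigenin (Liq), a plant flavanone used in the study as an agonist of estrogen receptor beta (ERβ). The set comprised 43 of the 23228 genes in the count tables, chosen by symbol for their place in DNA replication, deoxynucleotide synthesis or entry into S phase. The rule uses no measured value, but the set was proposed with earlier results of these data known. Cells were grown in phenol red–free RPMI-1640 with charcoal-treated serum, which removes most steroid hormones, and total RNA was collected after 24 h of vehicle or after 24 h of Liq, at 100 μM according to the methods of the study. Each group had 2 libraries. The labels do not say whether these came from separate cultures, so p-values measure only the spread between these samples, which may be technical.

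Before S phase, the origin recognition complex (ORC), CDC6 and CDT1 load rings of MCM2 to MCM7 onto origins, a step known as licensing. CDC45 and the GINS complex then turn each loaded ring into the moving helicase, polymerase α with its primase lays down primers, polymerases δ and ε extend them on the sliding clamp PCNA, and RPA coats the exposed single strands. Ribonucleotide reductase, thymidylate synthase and thymidine kinase feed this machinery with deoxynucleotides. Cyclin E and the activating E2F factors drive the transition from G1 to S, and in dividing cells many of these genes are transcribed together from promoters with E2F and CCAAT sites.

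Promoter windows are shown for the 4 genes with the largest shifts that had an entry in the RefSeq table, because shared promoter sites are the best known feature that joins these genes. The windows run from 250 bases before to 50 bases after the transcription start and were read from the RefSeq table for GRCh38.p14, and each was placed on GRCh37 by a single exact match. Capitals mark CCAAT and the E2F-type letters (TTCCCGC, or else TTCGCGC, or else TTGCCGC, or else TTGGCGC) on either strand, so that ATTGG is CCAAT read from the other strand and GCGGGAA is TTCCCGC read from the other strand. RRM2 lies at chr2:10262616-10262915 on the plus strand, TK1 at chr17:76183084-76183383 on the minus strand, POLD1 at chr19:50887330-50887629 on the plus strand and PRIM1 at chr12:57146058-57146357 on the minus strand.
RRM2: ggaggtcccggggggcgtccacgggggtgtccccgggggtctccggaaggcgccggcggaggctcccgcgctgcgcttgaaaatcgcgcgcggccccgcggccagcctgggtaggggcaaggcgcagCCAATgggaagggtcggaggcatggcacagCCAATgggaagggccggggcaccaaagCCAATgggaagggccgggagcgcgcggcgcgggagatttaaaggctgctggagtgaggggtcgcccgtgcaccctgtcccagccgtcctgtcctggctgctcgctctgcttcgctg
TK1: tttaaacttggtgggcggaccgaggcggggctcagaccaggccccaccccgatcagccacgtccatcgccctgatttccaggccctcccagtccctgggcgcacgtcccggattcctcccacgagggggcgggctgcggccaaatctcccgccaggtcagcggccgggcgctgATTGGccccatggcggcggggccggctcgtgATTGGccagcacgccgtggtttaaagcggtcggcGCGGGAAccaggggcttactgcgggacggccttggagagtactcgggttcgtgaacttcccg
POLD1: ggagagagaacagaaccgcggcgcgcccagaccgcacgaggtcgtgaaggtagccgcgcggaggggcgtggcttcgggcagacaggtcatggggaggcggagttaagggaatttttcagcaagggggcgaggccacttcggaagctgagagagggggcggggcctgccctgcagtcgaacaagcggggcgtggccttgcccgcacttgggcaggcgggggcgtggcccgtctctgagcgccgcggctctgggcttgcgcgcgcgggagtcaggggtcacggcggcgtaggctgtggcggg
PRIM1: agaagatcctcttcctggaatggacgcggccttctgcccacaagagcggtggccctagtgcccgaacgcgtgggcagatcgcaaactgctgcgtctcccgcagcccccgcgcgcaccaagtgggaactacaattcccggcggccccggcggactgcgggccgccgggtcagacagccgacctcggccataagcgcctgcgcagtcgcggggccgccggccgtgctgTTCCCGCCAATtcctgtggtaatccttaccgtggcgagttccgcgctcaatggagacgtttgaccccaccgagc

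The RRM2 window shown, at the start of the canonical transcript, held 3 CCAAT boxes at positions -123, -93 and -66 from the start. RRM2 has 2 windows in the table, and the E2F-type letters absent from the one shown occur 1 time in the other. In the TK1 window an E2F-type match lay at -12 and CCAAT at -77 and -46. The PRIM1 window held TTCCCGC at -24 and CCAAT at -18, which overlap, and the POLD1 window held none of the letters searched. In the whole table, 36 of the 43 genes had a window, 45 windows in all, and 7 genes (CCNE2, GINS4, MCM4, MCM5, POLD3, RPA2 and RPA3) had none. E2F-type letters were present in 30 of the 45 windows (66.7%), against 13% of all 34796 windows. CCAAT was present in 26 (57.8%), against 34.6% of all windows, and both motifs in 19 (42.2%), against 4.45%. The letters TTTGAA, the core of the CHR element found in many mitotic promoters, were present in 1 (2.22%), against 15.2%. These shares describe short letters in fixed windows and not occupied sites. The lower RRM2 and the higher TK1 described below both carry CCAAT in the window shown.

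The libraries held 34573053 to 48933893 reads on genes. Levels are given as CPM, the read count of a gene scaled to the normalized library size, and 3 counts correspond to 0.0598 to 0.0844 CPM. Divided by its degrees of freedom, the chi-square of the counts was 6.33 within the vehicle pair, 11.1 within the Liq pair and 58.4 to 71.4 across the groups, so no library was counted as a duplicate. With respect to identity, the epithelial keratins KRT7, KRT18 and KRT8 were at 238 to 378, 166 to 204 and 23.3 to 27.2 CPM, whereas CDH1 (0 in every library), EPCAM and KRT19 (both at most 0.0730 CPM) were at or near 0. The mesenchymal genes VIM, FN1 and CDH2 were at 5871 to 7604, 6886 to 7902 and 114 to 134 CPM. Of the ovarian markers, WT1 was at 2.76 to 4.83 CPM, PAX8 at 0.337 to 1.23 CPM, and MUC16 (at most 0.0281 CPM) and NAPSA (at most 0.159 CPM) near 0. Several of these markers differed between the groups, since KRT7 (log2 fold change 0.51, edgeR adjusted p = 1.08e-05) and CDH2 (0.22, 0.0265) rose while PAX8 (-1.34, 0.00214), WT1 (-0.68, 0.00285), VIM (-0.28, 0.000341), KRT18 (-0.24, 0.0132) and FN1 (-0.15, 0.0237) fell, and their part in the results was not tested. Of the leukocyte, endothelial and erythroid markers, PTPRC, CD3E, HBB and HBA1 were at most 0.0398 CPM, CD14, PECAM1 and VWF at most 0.309, 0.243 and 0.170 CPM, whereas CD68 was at 66.4 to 77.4 CPM and the endothelial marker CDH5 at 44.6 to 52.9 CPM. ESR2, which encodes ERβ, was at 0.0973 to 0.279 CPM and ESR1 at 0.454 to 0.677 CPM. In a bulk culture, fewer cells in S phase and less RNA of these genes per cell cannot be told apart.

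In Liq-treated cells, 2 of the 43 genes fell and 4 rose, by less than 1.5-fold each. RRM2, the small subunit of ribonucleotide reductase, and CCNE2, a cyclin E, were lower. TK1, the thymidine salvage kinase, POLD1, the catalytic subunit of polymerase δ, PRIM1, the catalytic primase subunit, and GINS4, a GINS subunit, were higher. For the remaining 37 genes the log2 fold change (Liq over vehicle) lay between -0.19 and 0.23, 20 negative and 17 positive, and the smallest adjusted p among them was 0.0782 for MCM5 (edgeR quasi-likelihood test, Benjamini-Hochberg over the 13546 genes tested). All 43 passed the filter on low counts. The 2 that fell are 4.65% of the set and the 4 that rose 9.30%, and among all genes tested 11.3% were lower and 12.6% higher at an adjusted p under 0.05. Among genes at 10 CPM or more, a limit chosen after the data were seen, 13.6% were lower and 10.9% higher. In both directions the share called in this fit was below that of all genes. This is a description of the counts and not a test, and it did not hold in every alternative fit. With loess offsets, which level out fold changes that run with expression, 11.63% of the 43 were higher, against 11.04% of all genes. The lower share stayed below that of all genes with these offsets, at 4.65% against 9.96%.

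**Figure D1:**
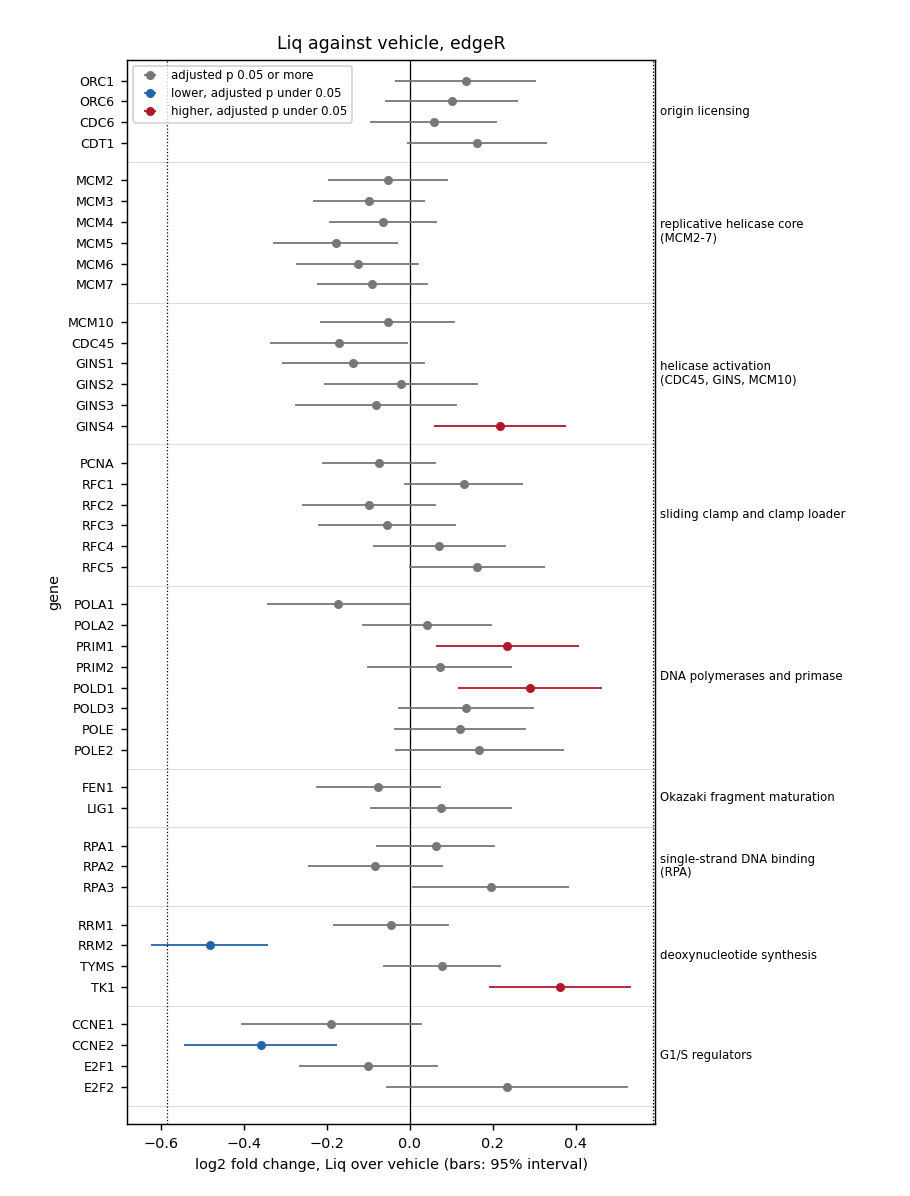
Log2 fold change of each of the 43 genes, Liq over vehicle, from edgeR with 2 libraries per group (x axis) by gene, grouped by role (y axis). Bars are 95% intervals and dotted lines mark 1.5-fold. RRM2 at -0.48 and CCNE2 at -0.36 are the lower calls, TK1, POLD1, PRIM1 and GINS4 the higher ones, and the other 37 intervals are drawn in gray.

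The smallest log2 fold change called among the 43 genes was 0.22, for GINS4, and smaller shifts of single genes may have gone uncalled. The median SE over the 43 genes was 0.0794 on the log2 scale, and their counts ran from 154 to 20578 per library. The 95% interval of the log2 fold change lay within 1.5-fold in either direction (0.585 on the log2 scale) for 42 of the 43 genes, RRM2 being the exception with a lower bound of -0.62, and within 1.25-fold (0.322) for 28. The median log2 fold change was -0.0209, with 22 genes negative and 21 positive, against 0.00619 for all genes tested and -0.0260 for genes at 10 CPM or more. The median absolute log2 fold change was 0.101, against 0.158 for all genes and 0.130 for genes at 10 CPM or more. Set against the mean of the vehicle libraries, the median of the 43 genes was 0.0112 and -0.0112 on the log2 scale in vehicle replicates 1 and 2, and -0.0148 and 0.0207 in Liq replicates 1 and 2. The Liq libraries thus lay on either side of the vehicle mean, without a common direction over the set.

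**Figure D2:**
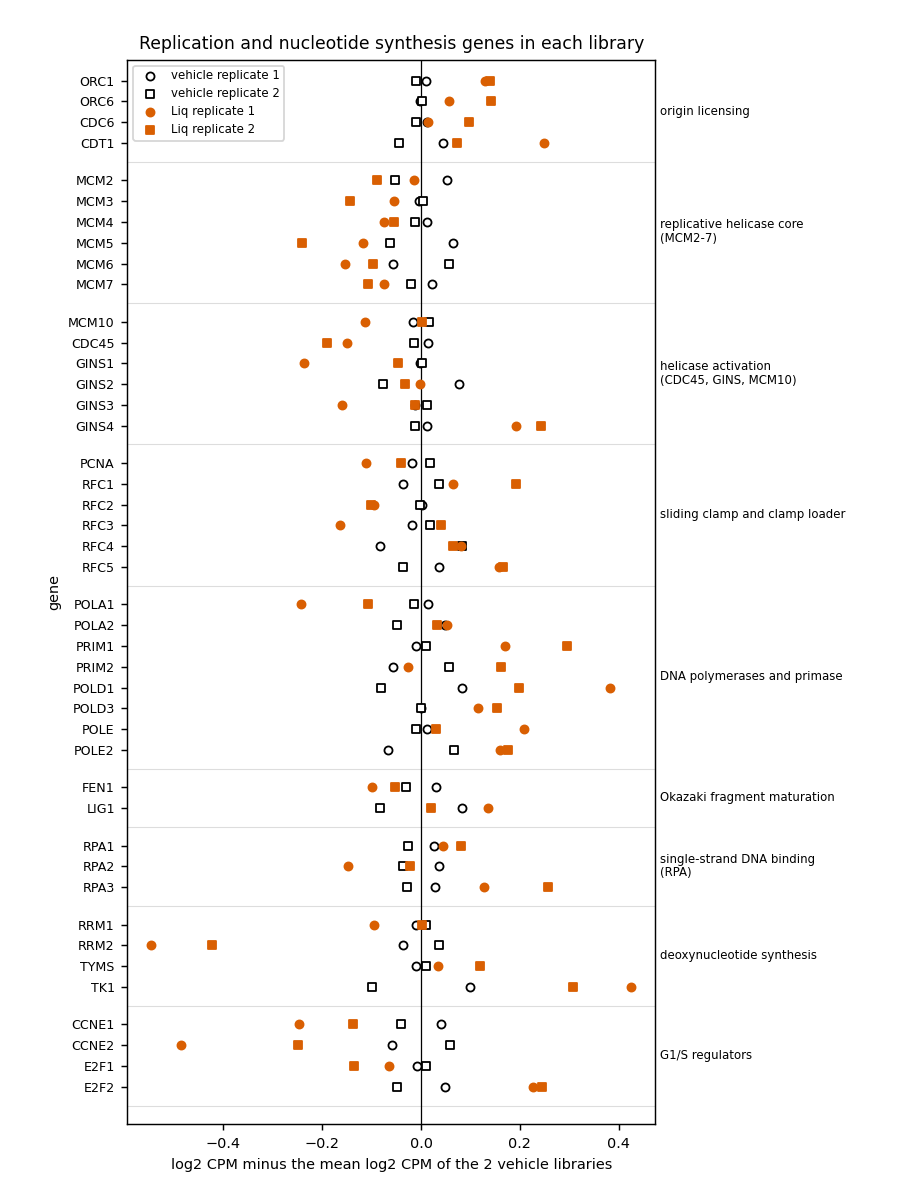
Level of each gene in each library as log2 CPM minus the mean log2 CPM of the 2 vehicle libraries (x axis), by gene and role (y axis). Open symbols are vehicle, filled symbols Liq, circles replicate 1 and squares replicate 2. Both Liq libraries sit left of both vehicle libraries for 16 genes and right of both for 17.

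Both Liq libraries were below both vehicle libraries for 16 genes and above both for 17. Among all genes tested, 30.2% were below and 31.5% above in this way. At an adjusted p under 0.05 and at least 1.5-fold, 2.16% of all genes were lower and 4.29% higher with edgeR, and 0 of the 43 were called. No member reached 1.5-fold in edgeR or DESeq2, so that count is also 0 at an unadjusted p under 0.05, while 9 of the 43 had an unadjusted p under 0.05 with no limit on the fold. For any one gene, permuting 2 libraries against 2 exactly gives no p below 0.3333, and the calls therefore depend on the variance that edgeR pools over genes (biological coefficient of variation 0.0575).

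**Figure D3:**
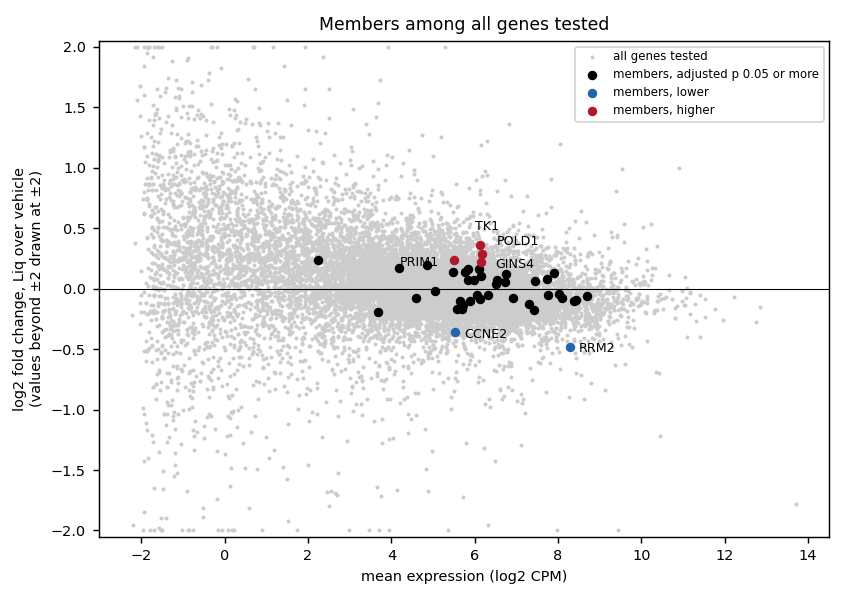
Log2 fold change, Liq over vehicle (y axis) against mean expression in log2 CPM (x axis) for the 13546 genes tested (light gray) and the 43 members. Values beyond 2 in either direction are drawn at the edge. RRM2 at -0.48 and TK1 at 0.36 mark the extremes of the members, which lie in the middle of the cloud.

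Deoxynucleotide synthesis held the largest shift in each direction. RRM2 (chr2:10260825-10351851, plus strand, GRCh37, 10 exons) is the subunit that carries the radical needed to reduce ribonucleotides, and its level is the one that varies through the cell cycle. It was at 352 and 371 CPM in the vehicle libraries and at 248 and 269.7 CPM in the Liq libraries, so that the groups were well apart. It fell by 28.4%, a log2 fold change of -0.48 (SE 0.068, edgeR adjusted p = 8.71e-06). RRM2 was also called in every alternative fit, with log2 fold changes from -0.55 without Liq replicate 2 to -0.40 with loess offsets. RRM1, the large subunit that holds the active site, was at 263 and 266 CPM with vehicle and 248 and 265 CPM with Liq, and the groups overlapped within a log2 difference of -0.05 (95% interval -0.19 to 0.09). The ratio of RRM2 to RRM1 counts was 1.34 and 1.39 in the vehicle libraries and 0.999 and 1.02 in the Liq libraries. The annotation lists 3 RRM2 pseudogenes, and reads shared with these copies would have been left out of the counts.

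TK1 (chr17:76170172-76183314, minus strand, 7 exons) phosphorylates thymidine taken up from outside, the salvage route to dTTP. Its level was 65.6 and 57.2 CPM with vehicle and 82.3 and 75.8 CPM with Liq. Both Liq libraries were above both vehicle libraries, with a log2 fold change of 0.36 (SE 0.083, edgeR adjusted p = 0.0023), although this rested in part on vehicle replicate 2, without which it was 0.27 (adjusted p = 0.171). TYMS, thymidylate synthase, makes dTMP from dUMP and is the de novo route to the same product. It was at 207 and 209 CPM with vehicle and 213 and 226 CPM with Liq, a log2 fold change of 0.08 (95% interval -0.06 to 0.22) that did not pass the test. TYMS shares 967 exon bases with ENOSF1 on the opposite strand. The ratio of TK1 to TYMS counts was 0.318 and 0.273 in vehicle and 0.386 and 0.336 in Liq libraries, again without overlap.

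Of the G1/S regulators, the cyclins E and E2F1 were at negative values and E2F2 at a positive one. CCNE2 (chr8:95891998-95908906, minus strand, 12 exons), which activates CDK2 at the start of S phase, was at 49.6 and 53.7 CPM with vehicle and 36.9 and 43.4 CPM with Liq. No Liq library reached the lower vehicle library, and the log2 fold change was -0.36 (SE 0.090, edgeR adjusted p = 0.00457). Without vehicle replicate 2 it was -0.30 (adjusted p = 0.120). CCNE2 shares 1629 exon bases with INTS8 on the opposite strand, and the strand setting of the counting is not given in the sources used here. INTS8 itself had a log2 fold change of 0.07 (adjusted p = 0.525). CCNE1, the other cyclin E, was at 13.9 and 13.1 CPM with vehicle and 11.4 and 12.3 CPM with Liq. Its log2 fold change of -0.19 (95% interval -0.41 to 0.03) did not pass, but it has the same sign as CCNE2. The ratio of CCNE2 to CCNE1 counts was 3.57 and 4.09 with vehicle and 3.24 and 3.54 with Liq, the higher Liq value lying just under the lower vehicle value. The transcription factors E2F1 and E2F2 stood at log2 fold changes of -0.10 (95% interval -0.27 to 0.07) and 0.23 (-0.06 to 0.53). E2F2 had the fewest reads of the 43 genes, at a mean of 4.63 CPM, and the widest interval.

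All 4 licensing genes of the set were at positive log2 fold changes, with a median of 0.118. Both Liq libraries exceeded both vehicle libraries in each, as they did for 31.5% of all genes tested. None of the 4 passed the test, and none had an unadjusted p under 0.05 in edgeR. CDT1, which escorts the MCM ring to the origin, was at 66.3 and 62.3 CPM with vehicle and 76.4 and 67.5 CPM with Liq, a log2 fold change of 0.16 (95% interval -0.01 to 0.33). ORC1, an ATP-binding subunit of ORC, was at 0.13 (-0.03 to 0.30) and ORC6 at 0.10 (-0.06 to 0.26). CDC6, the ATPase that recruits the ring, was at 0.06 (-0.10 to 0.21). The ORC subunits outside the set did not share this direction. ORC2, ORC4 and ORC5 were at -0.05, -0.03 and -0.03 and ORC3 at 0.07, and the groups overlapped in each. The sign held for the 4 licensing genes of the set in every alternative fit. CDT1 passed the threshold without Liq replicate 2, at 0.25 (edgeR adjusted p = 0.0171).

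The 6 ring subunits that these factors load went the other way, with a median log2 fold change of -0.0946 and no positive value. MCM5 was the farthest from 0, at 191 and 175 CPM with vehicle and 168 and 154 CPM with Liq, a log2 fold change of -0.18 (95% interval -0.33 to -0.03) with an unadjusted p of 0.0222 and an adjusted p of 0.0782 in edgeR. Without Liq replicate 1 it was called, at -0.24 (adjusted p = 0.0124). MCM6 was at -0.13 (-0.27 to 0.02), MCM3 at -0.10 (-0.23 to 0.04), MCM7 at -0.09 (-0.22 to 0.04), MCM4 at -0.06 (-0.19 to 0.07) and MCM2 at -0.05 (-0.20 to 0.09). For 5 of the 6 both Liq libraries were below both vehicle libraries, MCM2 being the exception, as for 30.2% of all genes tested. The shared sign did not hold under every scaling. With loess offsets, which level out fold changes that run with expression, MCM2 and MCM4 were both at 0.02, and without vehicle replicate 1 MCM2 was at 0.000252. MCM4 had the most reads of the 43 genes, at a mean of 416 CPM.

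Among the helicase activators the values differed in sign within one complex. GINS4 (chr8:41386737-41402549, plus strand, 8 exons) was at 65.7 and 64.7 CPM with vehicle and 74.5 and 77.2 CPM with Liq, without overlap, and rose by a log2 fold change of 0.22 (SE 0.077, edgeR adjusted p = 0.041). The call was close to the threshold, with an adjusted p of 0.278 without vehicle replicate 1, 0.326 without vehicle replicate 2, 0.0793 without Liq replicate 2, 0.0545 without the filter on low counts and 0.0504 with DESeq2. GINS1, its partner in the same 4-subunit complex, was at 55.3 and 55.4 CPM with vehicle and 47.0 and 53.6 CPM with Liq, a log2 fold change of -0.14 (95% interval -0.31 to 0.04), and was called without Liq replicate 2 at -0.24 (adjusted p = 0.0346). The ratio of GINS4 to GINS1 counts was 1.19 and 1.17 with vehicle and 1.59 and 1.44 with Liq. GINS4 shares 1145 exon bases with the noncoding gene ENSG00000253174 and 131 with GPAT4-AS1, both on the opposite strand. Neither is among the genes counted, and their part in the GINS4 value was not tested. GINS2 and GINS3 were at -0.02 (-0.21 to 0.16) and -0.08 (-0.28 to 0.11). CDC45, which completes the active helicase, was at 55.3 and 54.2 CPM with vehicle and 49.3 and 48.0 CPM with Liq, at -0.17 (-0.34 to -0.0042) with an edgeR adjusted p of 0.129. MCM10, needed to start unwinding, was at -0.05 (-0.22 to 0.11), and its groups overlapped.

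Of the 8 polymerase and primase genes in the set, 2 rose, against 12.6% of all genes tested. Positive values were found for 7, against 6910 of the 13546 genes tested, and the median was 0.128. POLD1 (chr19:50887461-50921275, plus strand, 27 exons) was at 68.6 and 61.3 CPM with vehicle and 84.6 and 74.4 CPM with Liq. It did not overlap between the groups and had a log2 fold change of 0.29 (SE 0.084, edgeR adjusted p = 0.0132), which was 0.21 (adjusted p = 0.313) without vehicle replicate 2 and 0.19 (adjusted p = 0.0742) without Liq replicate 1. POLD3, an accessory subunit of the same enzyme, was at 0.14 (95% interval -0.03 to 0.30). The ratio of POLD1 to POLD3 counts overlapped, at 1.33 and 1.19 with vehicle and 1.52 and 1.30 with Liq. POLD1 shares 426 exon bases on the same strand with ENSG00000142539, which is not among the genes counted. The part of this overlap in the POLD1 value was not tested.

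PRIM1 (chr12:57124222-57146158, minus strand, 13 exons) synthesizes the RNA primer and was at 41.4 and 41.9 CPM with vehicle and 46.8 and 51.1 CPM with Liq, with no overlap. Its log2 fold change was 0.23 (SE 0.084, edgeR adjusted p = 0.0434). This call was lost without vehicle replicate 1 (adjusted p = 0.317), without vehicle replicate 2 (0.251), without Liq replicate 2 (0.165), without the filter on low counts (0.0513) and with DESeq2 (0.0672). PRIM1 shares 139 exon bases with NACA on the same strand, a gene counted at 19788 to 28945 reads with a log2 fold change of -0.16, and 132 bases with HSD17B6 on the other strand, which had 16, 16, 33 and 33 counts in the same order of libraries. The part of these neighbors in the PRIM1 value was not tested. PRIM2, the regulatory primase subunit, was at 0.07 (95% interval -0.10 to 0.25), and the ratio of PRIM1 to PRIM2 counts was 0.778 and 0.729 with vehicle and 0.864 and 0.825 with Liq.

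POLA1, the catalytic subunit that extends the primer, was the only member of the polymerase group with a negative value. It was at 50.9 and 49.9 CPM with vehicle and 42.6 and 46.7 CPM with Liq, a log2 fold change of -0.17 (95% interval -0.34 to 6.8e-05, edgeR adjusted p = 0.139), and it was called without Liq replicate 2 at -0.24 (adjusted p = 0.0334). Its accessory subunit POLA2 was at 0.04 (-0.11 to 0.20). The leading strand polymerase genes POLE and POLE2 were at 0.12 (-0.04 to 0.28) and 0.17 (-0.04 to 0.37), and POLE was called without Liq replicate 2 at 0.21 (adjusted p = 0.0385). The split of 7 positive to 1 negative became 6 to 2 without vehicle replicate 2, where POLA2 was negative, and without Liq replicate 2, where PRIM2 was. It does not extend to the polymerase subunits outside the set. POLE4 and POLE3, of polymerase ε, were lower, at -0.39 and -0.24 (edgeR adjusted p = 0.00305 and 0.0154), POLE3 not being called with loess offsets. POLD4 and POLD2, of polymerase δ, were at -0.07 and 0.13, and neither passed the test.

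**Figure D4:**
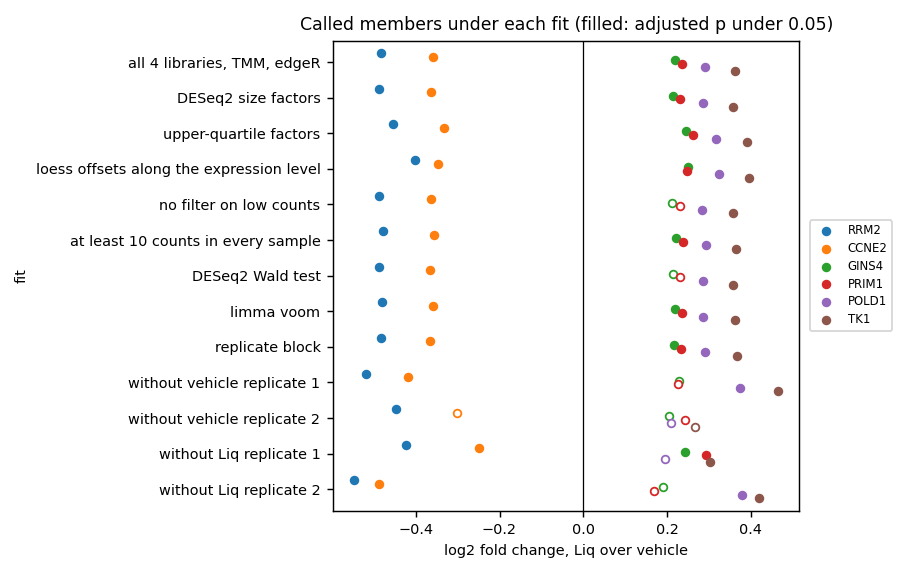
Log2 fold change, Liq over vehicle (x axis) of the 6 called genes under each fit (y axis), filled where the adjusted p was under 0.05 and open where it was not. RRM2 is filled in every fit, and GINS4 and PRIM1 are open in 5 fits each.

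The clamp and its loader were evenly split. PCNA, the ring that tethers the polymerases, was at 279 and 286 CPM with vehicle and 261 and 274 CPM with Liq, a log2 fold change of -0.08 (95% interval -0.21 to 0.06), which became 0.00585 with loess offsets. Of the loader subunits, RFC5 was at 0.16 (-0.0027 to 0.32), RFC1 at 0.13 (-0.01 to 0.27) and RFC4 at 0.07 (-0.09 to 0.23), while RFC2 was at -0.10 (-0.26 to 0.06) and RFC3 at -0.06 (-0.22 to 0.11). RFC5 was at 55.4 and 52.8 CPM with vehicle and 60.3 and 60.7 CPM with Liq. It shares 186 exon bases with WSB2 on the opposite strand, whose log2 fold change was -0.38. RFC1 was called with loess offsets at 0.21 (edgeR adjusted p = 0.0302) and without Liq replicate 1 at 0.19 (adjusted p = 0.0491). In the edgeR fit with TMM factors and no block, none of these 6 genes had an unadjusted p under 0.05, and the DESeq2 Wald test called none of them.

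The remaining factors act behind and ahead of the polymerase. FEN1, which trims the flaps of Okazaki fragments, was at -0.08 (95% interval -0.23 to 0.07), and LIG1, which seals them, at 0.07 (-0.09 to 0.24). RPA3, the smallest subunit of the single-strand binding complex, was at 27.3 and 26.3 CPM with vehicle and 29.3 and 32.0 CPM with Liq. Its log2 fold change of 0.19 (95% interval 0.01 to 0.38) had an unadjusted p of 0.0442 and an adjusted p of 0.127 in edgeR, and without Liq replicate 1 it was 0.26 (adjusted p = 0.0432). RPA1, the large subunit, was at 0.06 (-0.08 to 0.21) and RPA2, the subunit phosphorylated on replication stress, at -0.08 (-0.25 to 0.08). The 3 subunits of this obligate trimer thus did not share a sign.

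Levels between genes were compared per length, as CPM per kilobase of the Ensembl canonical transcript in GENCODE for GRCh37. PCNA was highest, at 221 with vehicle and 209.8 with Liq, followed by MCM7 at 145 and 136 and TYMS at 129 and 136. MCM3 followed at 112 and 104, and RRM2 at 111 and 79.4. RRM1 was at 84.2 and 81.6 on this scale. RRM2 was thus above RRM1 with vehicle and close to it with Liq, where the ratio of their counts was 0.999 and 1.02. At the low end were E2F2, at 0.820 and 0.964, and CCNE1, at 6.92 and 6.05. The MCM subunits, which form a ring of equal parts, ranged from 43.7 for MCM6 to 145 for MCM7 with vehicle. The gene models that the authors counted on may differ from these transcripts.

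Other genes of the same pathways were examined from lists of replication factors, nucleotide synthesis enzymes, regulators of S phase entry and mitosis genes. Among 38 other replication factors, 3 fell and 3 rose (7.89% in each direction, below the 11.3% and 12.6% of all genes), with a median log2 fold change of 0.00661. CHTF18, a subunit of an alternative clamp loader, rose by 0.52 (39.4 and 41.4 CPM with vehicle, 64.9 and 51.4 with Liq, edgeR adjusted p = 0.000208). SSRP1, a subunit of the histone chaperone FACT, fell by 0.30 (adjusted p = 0.00118) and RECQL4, a helicase, rose by 0.34 (adjusted p = 0.00268, but 0.0621 without vehicle replicate 2). The list counts moved when 1 library was left out, as did the counts over all genes tested. The list median was -0.00453 without vehicle replicate 1 and 0.0374 without vehicle replicate 2. It was 0.0487 without Liq replicate 1 and -0.00825 without Liq replicate 2.

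Nucleotide synthesis enzymes outside the set gave 6 lower and 1 higher of 33, 28 of them at negative values (84.8%, against 49.0% of all genes and 55.6% at 10 CPM or more), with a median of -0.122. NME1, a nucleoside diphosphate kinase, was at 165 and 149 CPM with vehicle and 118 and 119.7 CPM with Liq, and fell by 0.41 on the log2 scale (edgeR adjusted p = 0.000232). ATIC, which completes purine ring synthesis, fell by 0.32 (adjusted p = 0.00112, but 0.0845 without vehicle replicate 2), and DCTD, which makes dUMP for TYMS, fell by 0.32 (adjusted p = 0.00286, but 0.111 without vehicle replicate 1). With the 6 lower genes 18.2% of the list was called lower, against 11.3% of all genes. With loess offsets the count was 3 (9.09%), against 9.96% of all genes in that fit. The number called changed with the library left out, in the list as over all genes tested. Without 1 library the median of the list ranged from -0.150 to -0.0950.

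**Figure D5:**
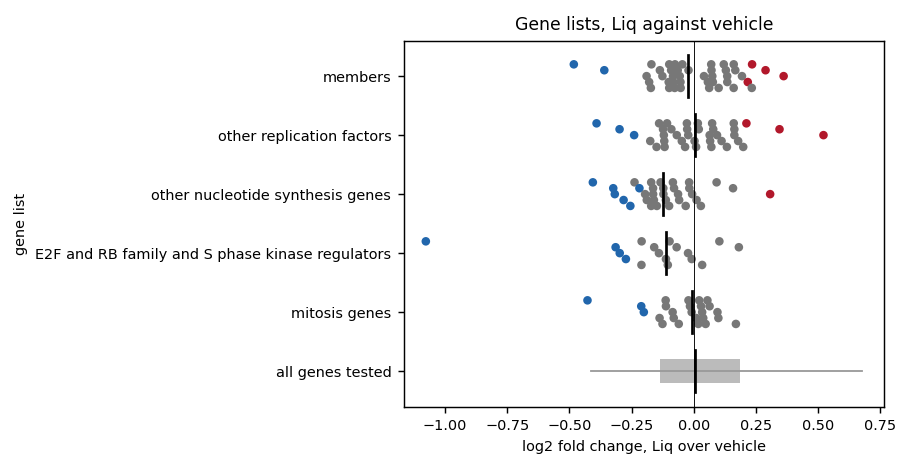
Log2 fold change, Liq over vehicle (x axis) of the 43 members and of 4 further lists (y axis). Each point is 1 gene, blue if lower and red if higher at an adjusted p under 0.05, black ticks are medians, and the bar and line for all genes tested span the middle 50% and the middle 90%. The medians are -0.0209 for the members and -0.122 for the other nucleotide synthesis genes.

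Of 17 E2F, RB and S phase kinase regulators tested, 4 fell (23.5%, against 11.3% of all genes), with a median of -0.112. There were 14 at negative values (82.4%), against 49.0% of all genes and 55.6% of genes at 10 CPM or more. CDKN1A, which encodes the CDK inhibitor p21, moved farthest, from 19.1 and 17.8 CPM with vehicle to 8.63 and 8.87 CPM with Liq, a log2 fold change of -1.08 (SE 0.11, edgeR adjusted p = 2e-08). E2F7, a repressor of E2F targets, fell by 0.31 (adjusted p = 0.00257, but 0.0987 without vehicle replicate 2) and the activator E2F3 by 0.27 (adjusted p = 0.0107, but 0.185 without vehicle replicate 1 and 0.119 without vehicle replicate 2). Fewer genes were called without either vehicle library, in this list as over all genes tested. The median of the list was then -0.140 without vehicle replicate 1 and -0.122 without vehicle replicate 2. Of 25 mitosis genes, 3 fell (12%, near the 11.3% of all genes) and the median was -0.00807. CDK1, the kinase that drives entry into mitosis, was at 241 and 252 CPM with vehicle and 166 and 201 CPM with Liq and fell by 0.43 (adjusted p = 0.000232). The mitotic kinases AURKA and PLK1 fell by 0.20 and 0.21 (adjusted p = 0.0383 and 0.0421). Neither AURKA nor PLK1 was called with upper-quartile factors or loess offsets, or without vehicle replicate 1 or 2. The count of lower genes was 1 (4%) with upper-quartile factors and with loess offsets, against 9.04% and 9.96% of all genes. In the other direction, TTK was called higher with loess offsets, and TTK and CENPF without Liq replicate 1. AURKA was also lost without Liq replicate 1 (adjusted p = 0.0682) and PLK1 without Liq replicate 2 (adjusted p = 0.164).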

How the data were processed

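RNA-seq of 4 ES2 libraries (2 vehicle, 2 Liq) was analysed. The authors deposited raw counts per gene, made per the labels with bcl2fastq 2.17.1.14, TopHat2 2.0.8b on hg19 and HTSeq, without normalization. Reads with several alignments (35.63% to 36.23% of those tallied) or on several genes (0.54% to 0.56%) are not counted by HTSeq. These tally lines were left out of the tests. Groups came from the labels, and the methods of the study gave the dose.

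Counts were filtered with filterByExpr (minimum count 10, minimum total 15), which left 13546 of 23228 genes, normalized by TMM and tested by glmQLFit and glmQLFTest in edgeR 4.0.16 (R 4.3.3) without a block, with Benjamini-Hochberg adjustment over all genes tested. The SE is the size of the log2 fold change over the square root of F, and 95% intervals use the t distribution. Intervals cover the spread between these libraries. The fits were tested on simulated counts.

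The members and lists were chosen with earlier results of these data known. Members with an adjusted p under 0.05 are given with the value in every library, the largest log2 fold change of each role is named, and so are the 3 genes with the smallest p of each further list. TICRR and CTPS1 were matched by older symbols through RefSeq. Alternatives were DESeq2 size factors, upper-quartile factors, loess offsets (span 0.3), leaving out the filter, a minimum of 10 counts per library, DESeq2 1.42.0, limma 3.58.1 voom, the replicate number as a block, each library left out in turn, 1.5-fold and an adjusted p under 0.01. Other assays of the study were not analysed here. The result of 1 gene that rose in the list of nucleotide synthesis enzymes is counted and not reported further here.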

Additional observations from a re-analysis of the deposited data

How the results depend on the processing

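RRM2 stayed lower and called in every alternative fit, and the other 5 called genes each lost the call in at least 1 fit that leaves out a library. The 2 lower genes became 6 with the replicate block (MCM5, MCM6, CDC45 and POLA1 added, with adjusted p of 0.00614, 0.0435, 0.0300 and 0.0412) and 0 at 1.5-fold, with a range of 1 to 4 over the fits without 1 library. The 4 higher genes became 2 without the filter on low counts, 2 with the DESeq2 Wald test, 7 with the replicate block (CDT1, RFC1 and RFC5 added, with adjusted p of 0.0285, 0.0331 and 0.0341), 0 at 1.5-fold and 1 at an adjusted p under 0.01, with a range of 0 to 5 without 1 library. The share of all genes tested that was called higher fell as well, from 12.6% to 10.3% without the filter and to 8.07% with the DESeq2 Wald test. Over all genes, fewer were also called higher without either vehicle library. The median of the 43 genes (-0.0209) was 0.0348 with loess offsets and ranged from -0.0370 to 0.0170 without 1 library. Same-numbered libraries deviated with a correlation of 0.0483 over all genes and 0.554 over the 43, across 2 pairs only, and nothing in the labels says that a number marks a shared culture. Of all genes tested, the replicate block called 18.3% lower and 17.1% higher, in each direction a larger share than of the 43 genes. Calls over all genes rose with the block too, from 1533 to 2474 lower and from 1712 to 2321 higher. Relative to the main fit, calls among the 43 rose more in each direction, from 2 to 6 and from 4 to 7. Whether this rise was particular to the 43 was not tested. The replicate block also called 15 lower among the other nucleotide synthesis genes. Among other replication factors it called 7 lower and 5 higher, and among mitosis genes 5 lower and 1 higher.

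Signs that turned all belonged to genes that did not pass the test. MCM2 (0.0242), MCM4 (0.0231), PCNA (0.00585) and RRM1 (0.0348) turned with loess offsets and GINS2 (0.00664) with upper-quartile factors. Without 1 library the log2 fold change ranged from -0.10 to 0.000252 for MCM2, -0.11 to 0.00178 for MCM10, -0.0964 to 0.0586 for GINS2, -0.164 to 0.0400 for RFC3, -0.0109 to 0.155 for RFC4, -0.00724 to 0.0906 for POLA2, -0.0287 to 0.161 for PRIM2, -0.00586 to 0.16 for LIG1 and -0.10 to 0.00118 for RRM1. The cause of these changes was not tested. Where 1 library is left out, the lone library of a group is assumed to vary like the other group. The limits are 2 libraries per group, unknown pairing and unknown strand setting, and by depth the intervals were widest for E2F2 and CCNE1, which had the fewest reads.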
